A study of Solanum lycopersicum with 9 samples.

Results

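Guard cell messenger RNA of tomato lines at the opposite ends of DELLA activity was compared, the gain-of-function line pro17 against the loss-of-function line pro. The comparison rests on 6 of the 9 libraries of the series, chosen by their genotype label, with 3 libraries of pro17 and 3 of pro. The 3 libraries of the wild type M82 are given beside them, to show where each gene stands in the parent. All groups are in the M82 strain, written sp-/sp in the labels, and no treatment is given for any of them. For pro17 the sample titles read pro∆17 in library 1 and other numbers after the delta sign in libraries 2 and 3, and the genotype label was followed. Guard cells came from expanded leaves without their veins, which were blended, and the epidermal fragments were collected on a mesh, so the preparation is enriched and not sorted. The labels do not say how the gain-of-function protein is expressed, nor how many plants stand behind a library. Nor is it stated whether each library of a line came from its own plants, so p-values measure only the spread between these libraries, and that spread may be technical.

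Gibberellins are plant hormones that promote growth, and DELLA proteins hold these responses back in the nucleus. Gibberellin binds the receptor GID1, the receptor then binds DELLA, and an F-box protein marks DELLA for degradation. A DELLA that lacks the motif recognised by the receptor resists this degradation, whereas a line without DELLA function behaves as if gibberellin were always present. In tomato a single DELLA, PROCERA, is known to act in guard cells, where it raises sensitivity to abscisic acid, the hormone that closes stomata.

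Libraries held 14826561 to 20445679 reads, and the lowest and highest totals were pro17 library 3 and pro library 3. The pro libraries were less alike than those of the other groups, with pairwise correlations across genes of 0.894 to 0.957, against 0.985 to 0.989 among pro17 and 0.963 to 0.984 among M82 libraries. The lowest of these was between pro libraries 2 and 3. The median SD between libraries of a gene's log2 level was 0.14 in pro17, 0.36 in pro and 0.21 in M82. Among the 20951 genes tested, pro library 3 was the pro library farthest from the pro17 mean in 55.9%, pro library 1 in 22.1% and pro library 2 in 21.9%. Levels are the deposited normalized counts, which are not divided by gene length, and changes are log2 differences after adding 1 to each value.

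The markers of the preparation were checked by identifier. The summed level of 2 guard cell loci was 858 to 1050 in pro17, 997 to 1599 in pro and 1034 to 1501 in M82, and neither locus passed the test between pro17 and pro. Guard cell locus 2 had 840, 848 and 704 in pro17, below all libraries of pro (1416, 1039 and 856) and of M82 (1355, 1150 and 870). Its log2 difference was -0.44 ± 0.20 (SE, limma adjusted p = 0.376). Locus 1 had a difference of 0.17 ± 0.19 (adjusted p = 0.707). Of all genes tested, 22.9% did not overlap between pro17 and pro. The summed level of 3 stomatal lineage loci was 1407 to 1546 in pro17, 1196 to 1468 in pro and 1237 to 1436 in M82, again with no locus past the test. Guard cell loci were thus present in every library. Loci of photosynthetic proteins, which are most abundant in mesophyll, were present too. The 3 Rubisco small subunit loci took 1.07% to 1.23% of a pro17 library, 0.402% to 1.28% of a pro library and 0.879% to 1.30% of an M82 library. The 6 light harvesting loci took 0.37% to 0.393% of a pro17 library, 0.211% to 0.63% of a pro library and 0.402% to 0.50% of an M82 library. In both lists pro library 3 was the lowest of the 9 and pro library 2 the highest or second to an M82 library. No Rubisco or light harvesting locus passed the test, and the part of mesophyll RNA in the results below was not tested. In bulk RNA, fewer cells of a type and less RNA per cell cannot be told apart.

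More of the genes that passed were higher than lower in pro17 against pro, 67% with limma here and 53.9% with DESeq2. With limma on the 6 libraries and Benjamini-Hochberg adjustment at 0.05, 273 genes passed (1.3% of 20951), of which 183 were higher in pro17 (0.873%) and 90 were lower (0.43%). The median change was 1.94 on the log2 scale among the 183 (range 0.71 to 9.12) and, in size, 1.75 among the 90 (range 0.69 to 8.40). Changes beyond 2-fold numbered 168 higher and 74 lower, and changes beyond 4 on the log2 scale 30 higher and 10 lower. The median change of all genes tested was 0.01. At an unadjusted p below 0.05 stood 3135 genes. The pro17 and pro libraries of all 273 genes did not overlap, a property of 22.9% of all genes tested. The genes were called from these same libraries, so the lack of overlap adds no support to the calls.

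The transcripts that differed were of ordinary abundance. Their mean level over the 6 libraries had a median of 289.6 in the genes higher in pro17 and 326 in the genes lower, against 302 in all genes tested. Together the genes higher in pro17 took 1.19%, 1.07% and 1.13% of the counts in the pro17 libraries, 0.38%, 0.372% and 0.359% in the pro libraries and 0.66%, 0.604% and 0.675% in the M82 libraries. The genes lower in pro17 took 0.236%, 0.256% and 0.234% in pro17, 0.614%, 0.562% and 0.671% in pro and 0.413%, 0.414% and 0.47% in M82. The choice of genes fixes the order of pro17 and pro in these shares. It does not use M82, whose shares lay between those of the lines for both sets. A wide gap between the lines makes such a place more likely.

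**Figure D1:**
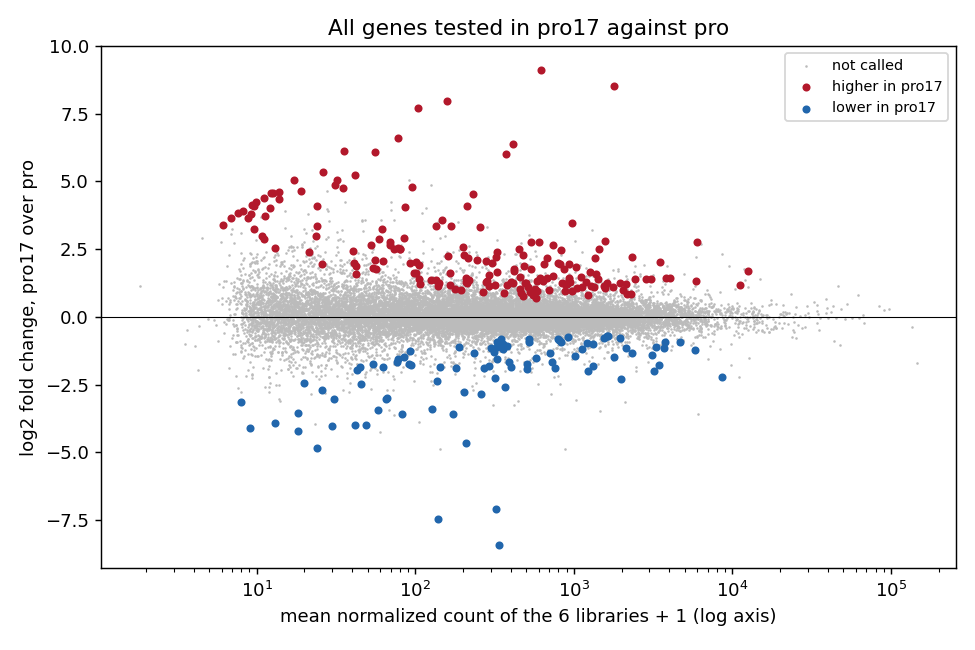
Mean level over the 6 libraries (normalized count + 1, log axis) on the x axis and the log2 change of pro17 over pro on the y axis, 1 point per gene, for the 20951 genes tested, with the 183 genes higher and the 90 genes lower in pro17 coloured. Genes that passed are spread over the whole range of levels, and many uncoloured points lie as far from 0 as the coloured ones.

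A large change alone did not make a gene pass. Of 1931 genes that differed beyond 2-fold, 242 passed and 1689 did not. In those 1689 genes the median SD between libraries was 0.28 in pro17, 0.95 in pro and 0.48 in M82. In the 273 genes it was 0.17, 0.27 and 0.28 in the same lines. The test sets each change against the spread of pro17 and pro, so their lower SD in the 273 genes was favoured by the selection. Pro library 3 was the pro library farthest from pro17 in 1047 of the 1689 (62.0%, near the 55.9% of all genes tested). Pro library 2 was the nearest in 1032 of them, and in 9206 of all 20951 genes tested. In the 273 genes that passed, the farthest was pro library 3 in 114 (41.8%), pro library 1 in 90 (33.0%) and pro library 2 in 69 (25.3%). Over all genes tested these shares were 55.9%, 22.1% and 21.9%.

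The files pair no names with identifiers, so only the 2 strongest identifiers in each direction are given, and their functions are not known here. Solyc11g028010 had 1316, 1197 and 1218 normalized counts in the pro17 libraries, 2, 0 and 2.69 in the pro libraries and 1277, 1238 and 1357 in the M82 libraries. Its reads were nearly absent from pro alone, and pro17 and M82 overlapped. The mean was 1243 ± 63.7 in pro17, 1.56 ± 1.4 in pro and 1291 ± 60.6 in M82 (SD, n = 3 each), and the log2 change of pro17 over pro was 9.12 ± 0.49 (SE), with a limma adjusted p of 0.00138. Over the recovered reads, 3713 in pro17 stood against 5 in pro, a depth-scaled ratio of 778 (95% interval 333 to 2400, counting error only).

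Solyc11g028100 showed the same arrangement at a higher level. It had 3697, 3291 and 3653 normalized counts in pro17, 17.0, 3.95 and 8.96 in pro and 3594, 3945 and 3411 in M82. The log2 change of pro17 over pro was 8.53 ± 0.44 (SE, limma adjusted p = 0.00138), and the ratio of reads was 357 (95% interval 251 to 525). For both identifiers the pro libraries stood apart from all the others, and pro17 overlapped with M82.

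In the other direction, Solyc11g030380 had 0.96, 2.69 and 0 normalized counts in pro17, 569.6, 519 and 939 in pro and 2.28, 0.98 and 0 in M82. Its transcripts were thus seen almost only in pro, with 4 reads in pro17, 2143 in pro and 3 in M82. The log2 change of pro17 over pro was -8.40 ± 0.52 (SE, limma adjusted p = 0.00165).

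Solyc00g107055, on no assigned chromosome, had 0.96, 0.90 and 0 normalized counts in pro17, 245, 261 and 322 in pro and 0, 0 and 0.92 in M82. The log2 change was -7.47 ± 0.37 (SE, limma adjusted p = 0.00138), from 2 reads in pro17, 868 in pro and 1 in M82. All of the 4 identifiers passed under each of the 14 other settings tried, with adjusted p of at most 0.0332.

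**Figure D2:**
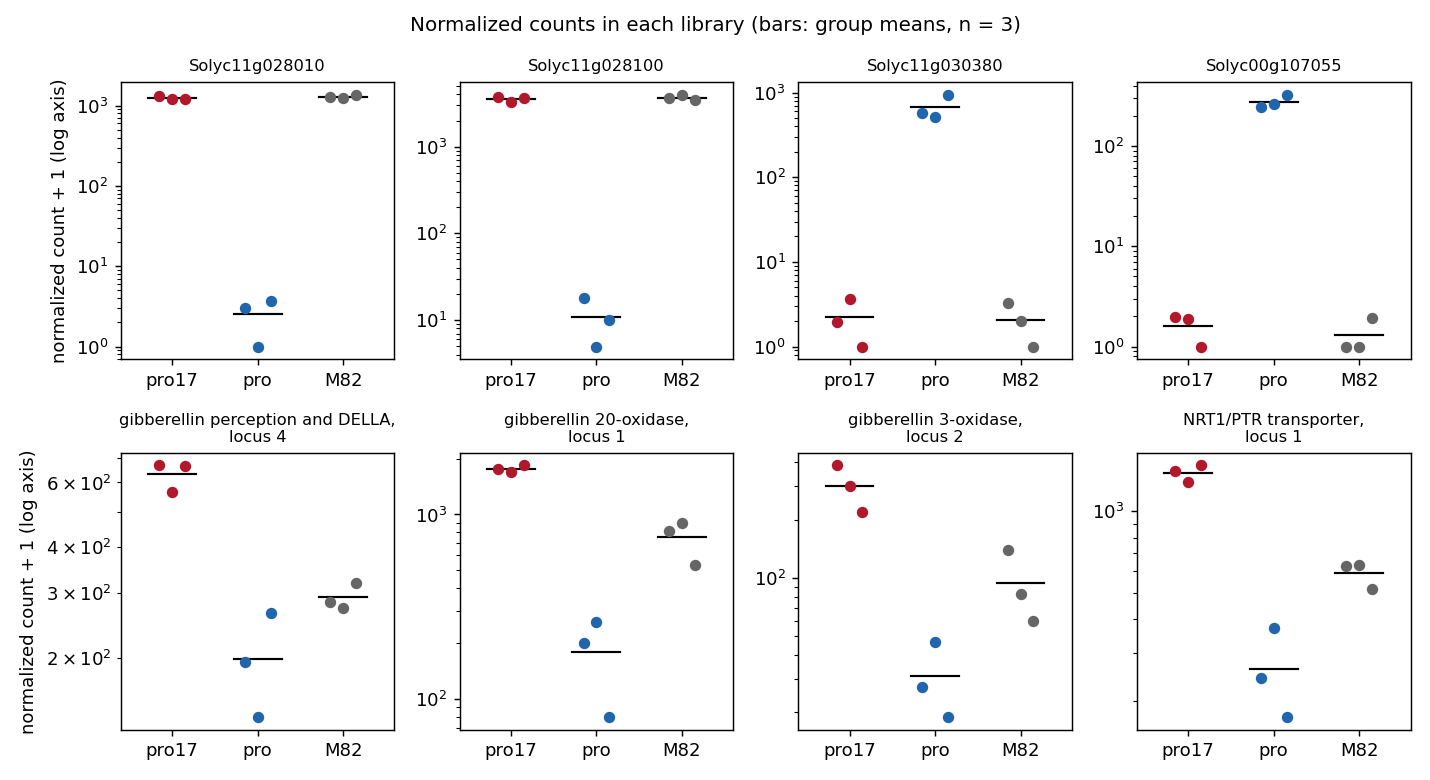
Normalized count + 1 (log axis) of 8 loci in each library, with pro17 left, pro in the middle and M82 right; points are the 3 libraries of a group and bars their means. For the 4 identifiers M82 sits with pro17 and pro stands apart, whereas for the 4 loci of gibberellin and transport lists M82 sits between the lines.

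Which line had moved away from the wild type differed from gene to gene, and M82 was mostly between the lines. The place of M82 was set at 0 for the pro mean and 1 for the pro17 mean on the log2 scale. Of the 183 genes higher in pro17, M82 lay between or on the means of the lines in 91.8%, nearer to pro17 in 72 and nearer to pro in 96, while 10 lay beyond pro17 and 5 beyond pro. Of the 90 genes lower in pro17, it lay between in 88.9%, nearer to pro17 in 22 and nearer to pro in 58, with 8 beyond pro17 and 2 beyond pro. Among all genes tested M82 was between the means in 47.3%. The median size of the change was 1.94 and 1.75 in the 2 sets, against 0.26 in all genes tested. A wide gap makes a place between the means more likely, so the selection set part of the contrast with 47.3%.

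On the median gene M82 was near the middle. The median place of M82 was 0.483 in the genes higher in pro17 (quartiles 0.356 and 0.619) and 0.386 in the genes lower (quartiles 0.283 and 0.591). By the libraries themselves, 225 of the 273 genes had pro17 libraries that did not overlap with M82 (82.4%, against 21.1% of all genes tested), and 190 had pro libraries that did not overlap with M82 (69.6%, against 9.01%). In 148 genes both lines stood apart from M82, in 77 only pro17 did, in 42 only pro did and in 6 neither. These shares rest on the same pro17 and pro libraries that made the genes pass, and both use the same M82 libraries. In 142 genes the 9 libraries were ordered without any overlap with M82 in the middle (52%, against 2.01% of all genes tested). That order needs pro17 and pro libraries that do not overlap, which held in all 273 genes and in 22.9% of all genes tested. Part of this contrast was thus set by the selection.

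**Figure D3:**
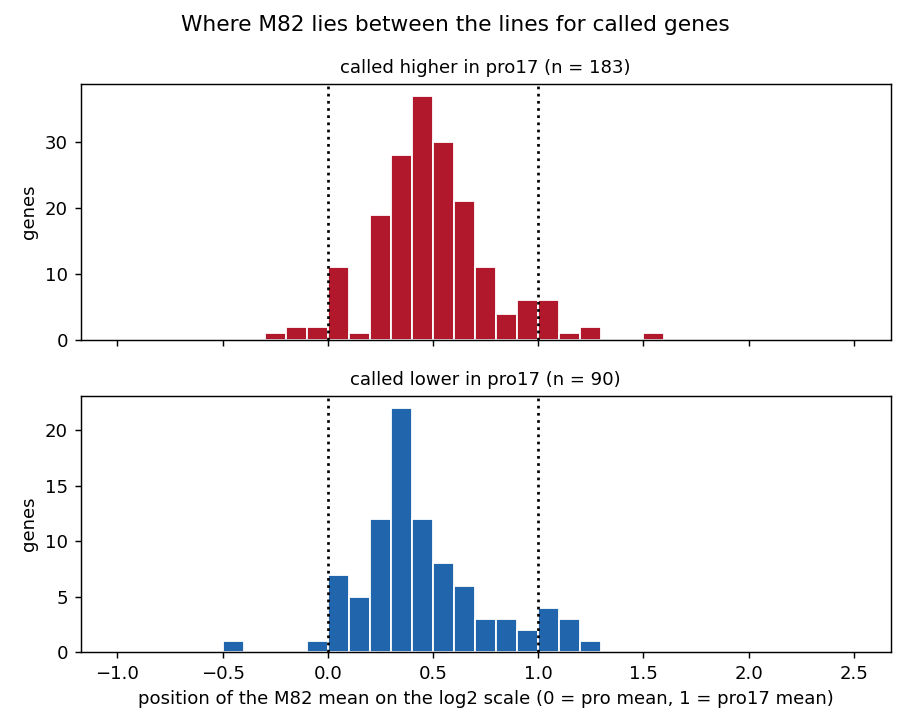
Number of genes (y axis) by the place of the M82 mean on the log2 scale (x axis, 0 at the pro mean and 1 at the pro17 mean, bins of 0.1), for the 183 genes higher and the 90 genes lower in pro17. Most genes lie between 0 and 1 with medians of 0.483 and 0.386, and the rest lie beyond either line.

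Whether M82 departed from the midpoint was tested with limma on all 9 libraries, a contrast that does not use the difference between pro17 and pro where the spread is equal, which it was not here. It called 19 genes (0.0907%), and 16 of them were among the 273. Among the 12 of these that were higher in pro17, M82 was nearer to pro17 or beyond it in 11 and at the level of pro in 1. Among the 4 that were lower, it was nearer to pro17 or beyond it in 3 and on the side of pro in 1. At an unadjusted p below 0.05 stood 74 of the 273 genes (27.1%), against 3.01% of all genes tested. The 273 genes were chosen for gaps that were wide against the spread of pro17 and pro, whose libraries also enter this test. A wide gap leaves more room for M82 to lie far from the midpoint. The selection may thus have set part of the contrast with 3.01%. The 4 identifiers named above were all among the 16, with adjusted p of 0.0017 for Solyc11g028010 and Solyc11g028100, 0.0245 for Solyc11g030380 and 0.00446 for Solyc00g107055. The count of 19 fell to 7 without M82 library 2 and was 24 without pro library 2.

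Some transcripts were seen on one side only. Of the genes higher in pro17, 14 had no read in any pro library, with 30 to 617 reads over the pro17 libraries. Against a floor of 3 reads over the group, they were at least 10.5-fold to at least 216-fold higher in pro17. Of these 14, 5 had no read in M82 either, so that reads came from pro17 alone, and 7 had at least 10 reads in M82. A further 11 genes higher in pro17 had 1 to 3 reads over the pro libraries. In the other direction 1 gene had no read in pro17, 50 in pro and none in M82, at least 15.9-fold lower in pro17, and 5 had 1 to 3 reads over the pro17 libraries.

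By their identifiers, genes that passed were found on all 12 chromosomes. The share of tested genes that passed ran from 0.674% on chromosome 1 to 1.94% on chromosome 7, and was 1.86% on chromosome 11. Chromosome 11 held 6.93% of the genes tested and 9.89% of those that passed, and 9 of the 40 that differed by more than 4 on the log2 scale. Of its 27 genes that passed, 18 had M82 nearer to pro17 than to pro. Among all 273 that passed, M82 lay between the lines but nearer to pro17 in 34.4%, and at or beyond pro17 in 6.59%. Chromosome 11 held 8 of the 16 genes that passed and where M82 also departed from the midpoint. The locus taken as PROCERA carries a chromosome 11 identifier too, and any part of its surroundings in these values was not tested.

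Genes of the gibberellin and abscisic acid pathways, a transporter, a dehydrin and cell type markers were followed through 50 loci in 13 lists. The lists were chosen with earlier results of these data known. Their loci were fixed by identifier from general knowledge that may include published work on these samples. What they are was not checked against an annotation. Of the 50 loci, 49 were listed and 47 tested, and 4 passed (against 1.3% of all genes), all of them higher in pro17. The median difference of the 47 was 0.18, against 0.01 in all genes tested, and the pro17 and pro libraries did not overlap in 14 of them (29.8%, near the 22.9% of all genes tested). The 4 gibberellin lists held 17 of the loci, of which 14 were tested and 3 passed. Their median difference was 0.93, with 10 of the 14 tested loci not overlapping between pro17 and pro and 10 at an unadjusted p below 0.05 (15% of all genes tested). Because earlier results were known when the lists were chosen, no excess over all genes tested can be read from these shares.

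The DELLA transcript itself did not pass. The locus taken as PROCERA had 5628, 5486 and 7448 normalized counts in pro17, 3892, 4507 and 2851 in pro and 3754, 3934 and 3824 in M82. All pro17 libraries were above all others, and pro overlapped with M82. The log2 change of pro17 over pro was 0.73 ± 0.22 (SE, limma adjusted p = 0.194), with adjusted p of 0.0474 to 0.592 over the other settings. A transcript count shows neither loss nor gain of protein function and is no check on the genotype labels.

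Of the 3 receptor loci, taken as GID1 genes, 1 passed. The third of them, locus 4 of the perception list, had 667, 565 and 665 normalized counts in pro17, 195, 137 and 263 in pro and 283, 273 and 319 in M82. It was higher in pro17 by 1.71 ± 0.25 on the log2 scale, or 3.27-fold (limma adjusted p = 0.0324). All pro17 libraries were above those of M82 and all pro libraries below them. The second receptor locus had 444, 406 and 416 in pro17, 144, 64.2 and 192 in pro and 208, 184 and 194 in M82, a log2 difference of 1.79 ± 0.38 that missed the threshold (adjusted p = 0.0891). The other receptor locus had a log2 difference of -0.18 ± 0.32 (95% interval -0.94 to 0.57, adjusted p = 0.809). The locus of the F-box protein that targets DELLA had a difference of 0.51 ± 0.23 (adjusted p = 0.374).

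Of 4 tested loci for the last steps of gibberellin synthesis, 2 passed, and both were higher with DELLA gain. Gibberellin 20-oxidase makes the precursors of active gibberellin, and 1 of its 3 tested loci passed. Locus 1 had 1763, 1694 and 1844 normalized counts in pro17, 199.9, 259.9 and 78.9 in pro and 818, 904 and 534 in M82. No library of one group reached into another, and M82 was between the lines. The log2 change was 3.45 ± 0.41 (SE), or 10.96-fold on the log2(count + 1) scale (limma adjusted p = 0.0173). The other tested loci differed in the same direction without passing. Locus 2 had 121, 135 and 127 in pro17, 19.99, 73.1 and 4.48 in pro and 49.1, 87.3 and 42.5 in M82 (adjusted p = 0.214). Locus 3 had few reads, with 21.1, 21.6 and 27.8 in pro17, 0, 0 and 14.3 in pro and 0, 0 and 2.77 in M82 (adjusted p = 0.216).

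Gibberellin 3-oxidase carries out the final activating step. Its single tested locus had 385, 300.0 and 221 normalized counts in pro17, 25.98, 45.5 and 17.9 in pro and 139, 81.5 and 59.1 in M82. It was again ordered without overlap, with M82 near the middle. The log2 change was 3.36 ± 0.38 (SE), or 10.3-fold (limma adjusted p = 0.0157). A second 3-oxidase locus was not in the table.

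Gibberellin 2-oxidase inactivates gibberellins, and none of its 5 tested loci passed, with limma log2 differences of -2.43 to 1.12 and a median of -0.88. At an unadjusted p below 0.05 stood 3 of the 5, edgeR called none, and DESeq2 called the 2 with the lowest values (6.51% of the genes to which it gave an adjusted p). The locus with the clearest difference had 21.1, 18.0 and 31.4 normalized counts in pro17, 159, 55.4 and 144 in pro and 28.6, 21.6 and 54.4 in M82. Here pro stood above the others, though its lowest library was barely above the highest M82 library (55.4 against 54.4). The pro17 libraries overlapped with M82. Its log2 difference of -2.20 ± 0.46 had an adjusted p of 0.0838 in the 6-library fit, and 0.000146 to 0.337 over the other settings.

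**Figure D4:**
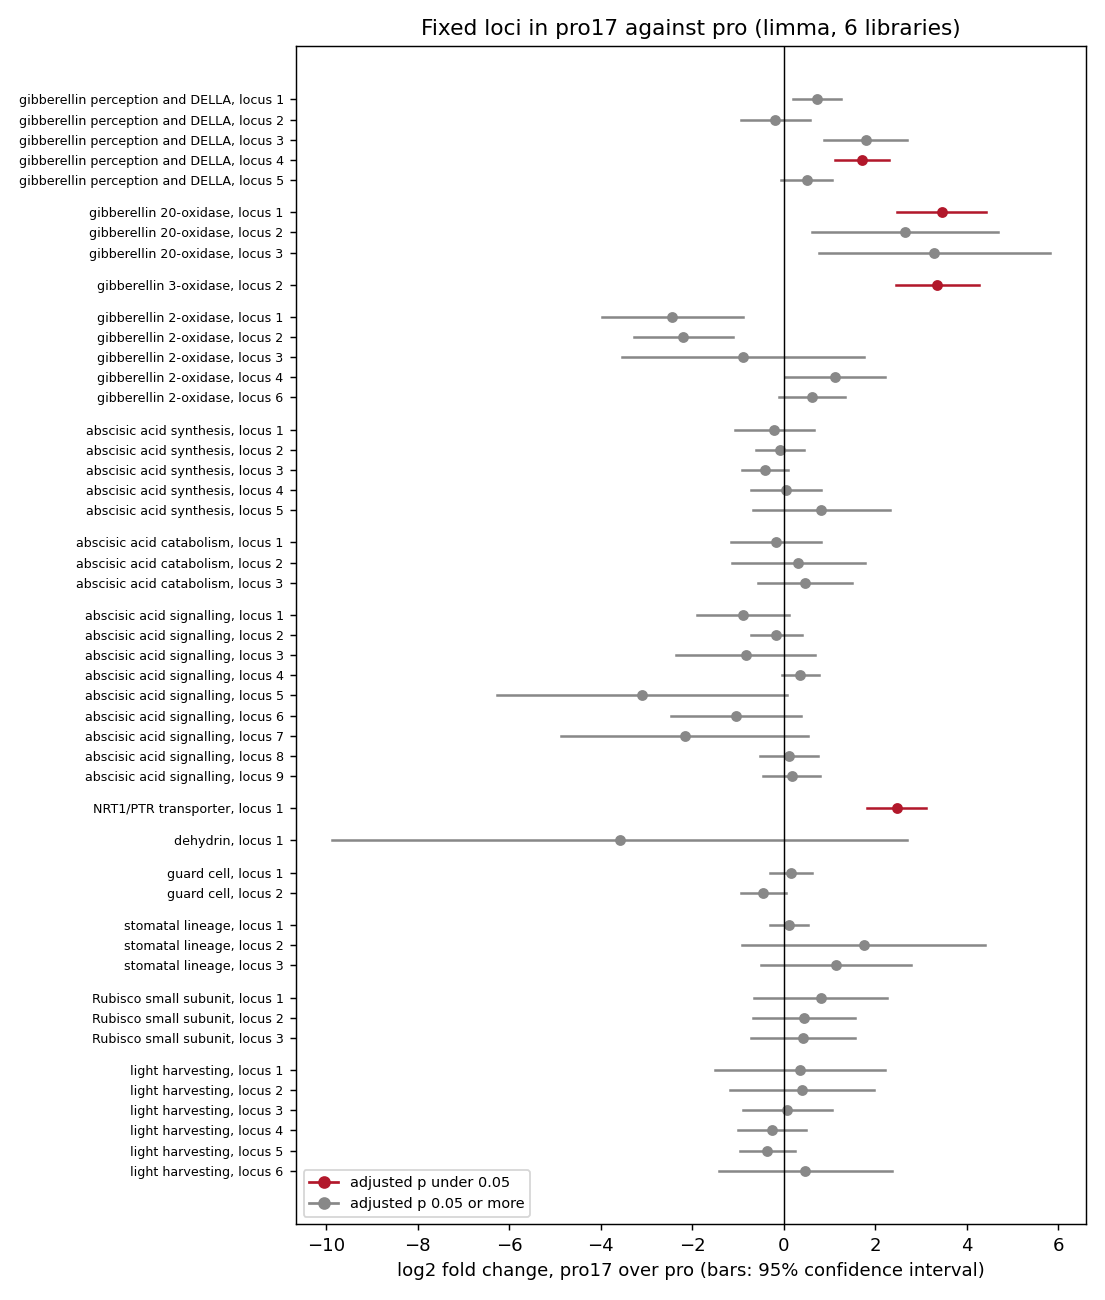
Log2 change of pro17 over pro (x axis) with its 95% interval for the 47 tested loci, grouped by list, with the 4 loci that passed in red. The red points are 1 receptor locus, 1 gibberellin 20-oxidase locus, the 3-oxidase locus and the NRT1/PTR transporter locus, all to the right of 0, and the widest intervals belong to the dehydrin and to abscisic acid signalling loci.

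A transporter locus was also higher with DELLA gain. Members of the NRT1/PTR family carry nitrate, peptides and, for some members, hormones, and this locus was included as a possible abscisic acid importer. It had 1403, 1278 and 1476 normalized counts in pro17, 242, 369.6 and 173 in pro and 625, 635 and 515 in M82. It was ordered without overlap, and the place of M82 was 0.501, midway between the lines on the log2 scale. The log2 change was 2.47 ± 0.27 (SE), or 5.53-fold (limma adjusted p = 0.0141).

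Of the loci of abscisic acid itself none passed, namely 5 of synthesis (limma log2 differences -0.41 to 0.83), 3 of catabolism (-0.16 to 0.46) and 9 of signalling (-3.10 to 0.37, median -0.83). None of these 17 stood at an unadjusted p below 0.05. EdgeR called none of the 17 and DESeq2 called signalling locus 5. Signalling loci 3, 5, 6 and 7, taken as type 2C protein phosphatases that restrain the response to the hormone, had differences of -0.83, -3.10, -1.05 and -2.16. Of the 9 signalling loci, 6 had negative and 3 positive differences. Locus 4 went the other way (0.37), with 4086, 4927 and 4711 normalized counts in pro17, 3799, 2937 and 3965 in pro and 3733, 3848 and 3919 in M82. It was the only 1 of the 9 without overlap between pro17 and pro, a property of 22.9% of all genes tested. Locus 5 had 55.6, 44.9 and 22.9 normalized counts in pro17, 538.6, 35.6 and 1979 in pro and 68.5, 75.6 and 306 in M82. Locus 7 had 174, 136 and 117 in pro17, 707, 101 and 3512 in pro and 208, 249 and 351 in M82. In both, pro library 3 was far above pro library 2, which overlapped with or lay below pro17. The dehydrin locus, a gene class known to respond to water loss, was the extreme case, with 42.2, 35.9 and 37.4 in pro17, 331, 7.91 and 35710 in pro and 12.6, 38.3 and 174 in M82. Its log2 difference of -3.58 ± 2.65 had an adjusted p of 0.566, so that no difference between the lines was detectable above the spread within pro.

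How many genes passed depended on the tool and on single libraries. With DESeq2 the count was 1363 genes, 734 higher and 629 lower in pro17, including all 273, and a fit with replicate number as a block called 20. With M82 in the same fit 712 genes passed (3.4%), including 263 of the 273, which is 96.3% of the 273 and 36.9% of the 712. Without pro library 2 it was 2440 genes and without pro library 3 it was 966, and all 273 were among both sets. Without pro library 1 it was 42, and without any pro17 library in turn 20 to 22. The 4 loci of the gibberellin and transport lists that passed kept their direction in all 14 other settings, but passed in 9. They were lost in the fit with replicate number as a block, without pro library 1 and without each pro17 library in turn. The highest adjusted p over the settings was 0.204 for the receptor locus, 0.141 for the 20-oxidase locus, 0.127 for the 3-oxidase locus and 0.124 for the transporter locus.

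A small set passed whatever the setting. In all 14 other settings 16 genes passed, 12 of them higher and 4 lower in pro17, with changes of 2.75 to 9.12 in size on the log2 scale. The 4 identifiers named above were among them, and 8 of the 16 carried chromosome 11 identifiers. In 11 of the 16 M82 was nearer to pro17. Of the 273, 222 passed under every change of tool, scaling, pseudocount and filter, which left the libraries as they were.

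**Figure D5:**
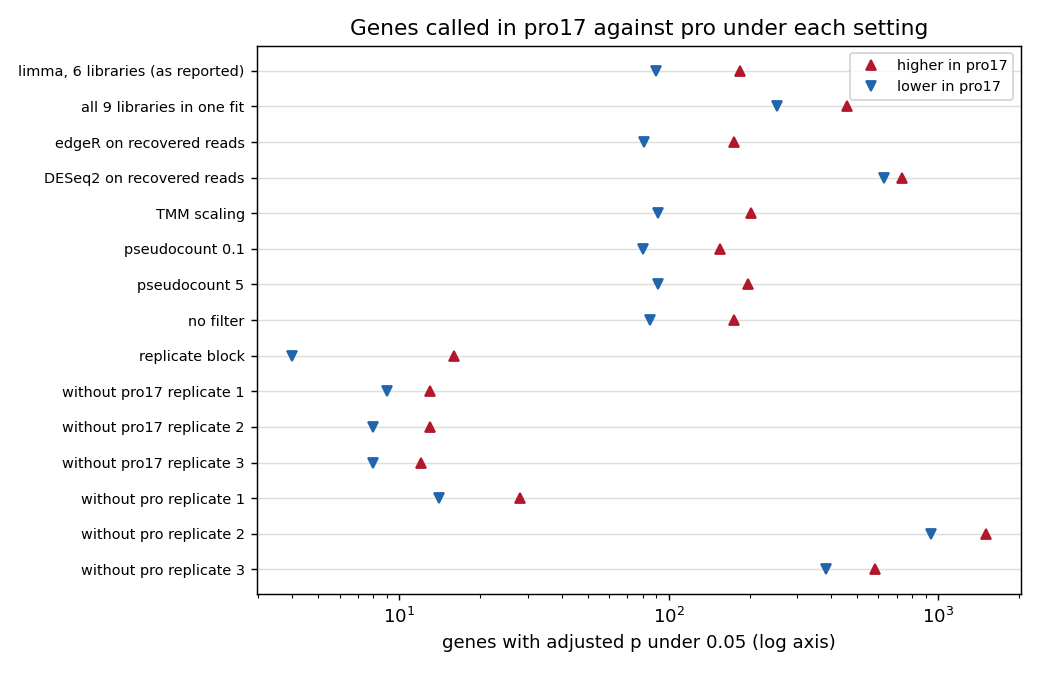
Number of genes that passed, higher and lower in pro17 (x axis, log scale), in the 6-library fit and under each other setting. The counts stay near 183 and 90 under other scalings, pseudocounts and filters, and spread from 20 to 2440 in all when a single library is left out.

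By the adjusted p in the authors' deposited table, 1799 genes passed 0.05 for these lines, 932 higher and 867 lower in pro17. Of the 273, 272 were called in the authors' deposited table as well, all in the same direction, and 1 was not.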

How the data were processed

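Poly A RNA of guard cell preparations was sequenced, and groups came from the genotype label. The values of 23028 genes in the deposited table are a signal, headed normalized counts per the file headers. Tools named in the submitters' processing notes are cutadapt, STAR 2.4.2a, HTSeq and DESeq2. No genome build, annotation or strand setting is given in the sources used here, so genes that overlap, lie antisense or are nearly identical could share reads. The authors' log2 changes with their p-values, as deposited, served only for the overlap with their calls, and 2 unnamed columns were not used. An identifier listed on 2 lines was kept as 2 genes.

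Every value (100%) was a whole multiple of the value of 1 read, with a tolerance of 0.006, which gave whole reads. In pro library 1 that step is close to 1. Intervals and floors cover counting error only, since without molecular identifiers a read need not be its own molecule.

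Limma 3.58.1 (R 4.3.3) with a mean-variance trend was fitted to log2 of the normalized count plus a pseudocount of 1, in the 6 libraries. Changes of genes with low values are understated on this scale. The expression filter of edgeR, applied to the recovered reads of all 9 libraries, kept 20951 genes and left out 2077. Adjustment was by Benjamini-Hochberg over all genes tested, with a threshold of 0.05. No permutation test was used, because 3 against 3 cannot reach that threshold.

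The 9-library fit, edgeR 4.0.16 and DESeq2 1.42.0 on the recovered reads, TMM scaling, pseudocounts of 0.1 and 5, no filter, a replicate block and each library left out were the alternatives. Where 2 libraries of a line remain, the fit pools the spread. The test was tried on simulated data. The named identifiers are the 2 with the largest change per direction among genes that passed, did not overlap and had a mean of at least 1 CPM. List loci are given without identifiers, since the reference table (SLM_r2.1) matched 0 of them. The comparison, lists and rules were chosen with earlier results of these data known.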

Additional observations from a re-analysis of the deposited data

How the results depend on the processing

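The count of 273 genes was 712 with all 9 libraries and 1363 with DESeq2, where 53.9% were higher in pro17 against 67% here. It stayed within 1.5 times with edgeR (255), TMM scaling (293), pseudocounts of 0.1 (235) and 5 (288) and no filter (259), and was 20 with the replicate block. Leaving out single libraries gave 20 to 2440, and the cause was not tested. Of the fixed loci 4 passed here, 6 with all 9 libraries and 8 with DESeq2, against 0 with the replicate block and 0 to 11 with single libraries left out. The 19 genes off the midpoint were 11 with edgeR, 9 with a pseudocount of 0.1, 10 with the replicate block and 7 to 24 with single libraries left out. DESeq2 was not used for the midpoint. Replicate numbers were not taken as pairs, because the labels do not say that they pair samples. Deviations of same-numbered pro17 and pro libraries correlated at 0.184, 0.056 and 0.0219. The same-numbered pro library was the best match for pro17 libraries 1 and 2, whereas pro17 library 3 correlated best with pro library 2 (0.0566). These correlations do not settle whether the numbers pair libraries. Among 363 values of single loci and identifiers under other settings, 325 kept direction and side of the threshold, 20 lost the call, 16 gained it and 2 changed sign. These were the first receptor locus without pro library 3 (0.16, adjusted p 0.699, range -0.52 to 0.16 over single libraries left out) and a 2-oxidase locus without pro17 library 1 (0.46, adjusted p 0.796, range -1.62 to 0.46). Depth limits loci with few reads, where a count of 0 allows up to 3 reads.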

Other observations

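Among abundant transcripts, the most-read gene higher in pro17 had 19619, 16982 and 21390 normalized counts in pro17, 5491, 5690 and 6512 in pro and 9136, 7553 and 12434 in M82. Its log2 change of pro17 over pro was 1.71 ± 0.19 (SE, limma adjusted p = 0.0141), and the libraries of pro17, pro and M82 did not overlap. The most-read gene lower in pro17 had 3079, 3149 and 2802 in pro17, 15423, 13128 and 13775 in pro and 5626, 8613 and 9792 in M82. Its log2 change was -2.23 ± 0.15 (SE, limma adjusted p = 0.00282), and M82 again lay between the lines without overlap. Their functions are not known here. They were picked for their level after the values were seen.

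Genes that passed and were neighbours in identifier order among the genes tested formed 23 pairs. In 21 pairs both genes moved in the same direction, 18 of them higher and 3 lower in pro17, and in 2 pairs the directions were opposite. These pairs took in 39 of the 273 genes (14.3%). How often neighbours among all genes tested moved in the same direction was not counted, so no clustering can be read from these numbers. The longest run was 5 genes on chromosome 11, all higher in pro17, and it held both named identifiers that were higher. Near-identical neighbours could share reads, which was not tested.

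In 3 genes M82 departed from the midpoint although pro17 and pro did not pass, and M82 was below both lines in all 3. One of them had 1545, 1263 and 1342 normalized counts in pro17, 1610, 1184 and 1382 in pro and 162, 63.8 and 108 in M82. The lines overlapped with each other and were both far above the wild type.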
